A study of Mus musculus with 12 samples.

Results

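The intestinal transcriptomes compared here are those of mice irradiated in the HH mode and in the LL mode at the same dose and time. They make up 6 of the 12 libraries of the series, 3 labelled HH_WBI and 3 labelled LL_WBI. HH_WBI is intestine of female C57BL6/J mice 48 h after 10 Gy of whole-body electron irradiation in the HH mode, in which both the mean and the instantaneous dose rate are ultra-high. LL_WBI is intestine of mice of the same sex and strain, also 48 h after 10 Gy, irradiated in the LL mode, in which both rates are low. The mice of every group were bought at 7 to 8 weeks of age. For HH the beam came from a compact linear accelerator and for LL from a clinical linac, so dose rate, machine and handling cannot be told apart. Each mode had its own untreated mice, labelled HH_Ctrl and LL_Ctrl, again 3 libraries each, and their values are given for the genes and lists where a comparison with them is drawn. The labels name the tissue as intestine without a segment. Neither the labels nor the methods say whether the libraries are from different mice, so the tests measure the spread between these libraries, part of which may be technical.

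The study asked whether intestinal tissue responds differently to the HH and LL modes. The gut lining renews itself within days from dividing crypt cells, and ionising radiation halts or kills these cells through the p53 pathway, which makes the intestine one of the organs that limit the dose to the abdomen. The lining also differs along its length. Enzymes and transporters for sugars, peptides and fat are made mainly in the proximal small intestine, bile acid uptake is a task of the ileum, and the duodenum lies against the pancreas, whose acinar cells hold very abundant mRNAs for digestive enzymes. Many intestinal genes in addition follow the daily clock and the last meal.

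No gene passed the threshold between HH_WBI and LL_WBI. Of the 22063 genes in the table, 13049 had a mean of at least 0.5 FPKM (fragments divided by transcript length and by library size) over the 6 libraries and were tested with limma on log2(FPKM + 0.1). Calls required an absolute log2 difference above 1 together with an adjusted p (Benjamini-Hochberg) under 0.05, and 0 genes met this (0%). The smallest adjusted p was 0.0813, 5 genes lay under 0.1 and 17 under 0.2. At an unadjusted p under 0.05, 724 genes were higher in HH_WBI (5.55%) and 734 were lower (5.62%), 11.2% together. All 3 HH_WBI libraries lay above all 3 LL_WBI libraries for 1099 genes (8.42%) and below them for 1128 (8.64%). These shares are the background against which the counts of gene groups are read, and every difference is HH_WBI minus LL_WBI on the log2(FPKM + 0.1) scale with its standard error. Where values of 3 libraries stand against 3 others without names, HH_WBI 1, 2 and 3 come first and LL_WBI 1, 2 and 3 second. On this scale the differences of genes with low FPKM are understated. Since no gene was called, individual genes are given by their values and by whether the groups overlap.

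The direction of many genes depended on how the libraries were scaled. With the pancreatic genes removed and the remaining FPKM rescaled, the median difference of all genes moved from 0.00 to -0.21, and 466 genes were higher and 2215 lower at an unadjusted p under 0.05 in place of 724 and 734. With trends on GC content and transcript length taken out of each library, 1083 were higher and 689 lower, at a median of 0.01. Medians, signs and counts given later for either setting are to be read against these values for all genes.

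The composition of the libraries differed within the LL_WBI group. Transcripts of pancreatic acinar cells, the enzyme-secreting cells of the exocrine pancreas, were abundant in LL_WBI 1 and LL_WBI 2 and scarce in the other libraries. Among the 6 irradiated libraries ileal transcripts were highest in HH_WBI 3 and LL_WBI 3, and stomach transcripts stood out in LL_WBI 2. Markers of intestinal epithelium were present in all 6 libraries. The acinar list summed to 46294, 186220 and 766 FPKM in LL_WBI 1, 2 and 3, which was 8.11%, 30.5% and 0.124% of all FPKM of those libraries. It summed to 509, 434 and 401 FPKM in HH_WBI 1, 2 and 3, and to between 479 and 1632 FPKM in the 6 control libraries. A sum over RNA cannot tell more cells of a type from more RNA per cell.

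Ctrb1, which encodes the digestive protease precursor chymotrypsinogen B, reached 4607, 18563 and 12.9 FPKM in LL_WBI 1, 2 and 3 against 17.7, 0.574 and 0.398 FPKM in HH_WBI 1, 2 and 3. Cpa1 (carboxypeptidase A1) was at 1509.8, 5279.6 and 3.16 FPKM in the LL_WBI libraries and at 4.31, 0.318 and 0.0740 FPKM in the HH_WBI libraries. The elastase Cela3b (1082, 4386 and 3.33 FPKM in LL_WBI), the trypsinogen Prss2 (3021, 12488 and 7.22 FPKM) and the lipase Pnlip (2629, 9254 and 5.96 FPKM) had the same order of libraries. For each of them LL_WBI 3 was more than 100 times below the other LL_WBI libraries and close to the highest HH_WBI library. Over the 34 acinar genes tested the median difference was -7.78, and -1.57 with LL_WBI 1 and 2 left out. In 8 of the 34 all HH_WBI libraries lay below all LL_WBI libraries (8.64% of all genes). LL_WBI 1 and 2 also raised the means on which these genes were filtered, so the difference describes those libraries and not the group. The amylase genes are uncertain one by one, since Amy2a2, Amy2a3 and Amy2a4 had identical values in every library. Amy2a5 was listed at 859, 5872 and 0 FPKM in LL_WBI and at 0, 1.26 and 0.383 FPKM in HH_WBI. The islet hormone gene Ins2 was at 5.16, 21.3 and 0 FPKM in LL_WBI and at most 0.095 FPKM in HH_WBI.

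The stomach list summed to 4530.5 FPKM in LL_WBI 2 and to between 0.167 and 10.7 FPKM in every other library. Gkn3, which encodes a gastrokine of the stomach lining, was at 7.03, 3128 and 1.80 FPKM in LL_WBI and 2.57, 0.343 and 0.0450 FPKM in HH_WBI, and Gkn2 at 0.369, 571 and 0.349 and 0.548, 0.0530 and 0 FPKM. LL_WBI 2 alone carried these transcripts at a high level.

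Fabp6, the ileal bile acid binding protein, was at 8.75, 0.701 and 586 FPKM in HH_WBI 1, 2 and 3 and at 0.260, 0.263 and 82.2 FPKM in LL_WBI 1, 2 and 3. Fgf15, the ileal hormone that restrains bile acid synthesis in the liver, was at 3.27, 0.626 and 44.2 FPKM in HH_WBI and 0.0230, 0.0930 and 39.7 FPKM in LL_WBI. Slc10a2, the sodium-coupled bile acid transporter of the ileum, was at 1.81, 0.708 and 17.9 against 0.180, 0.253 and 5.03 FPKM. The third library of each group was the highest for all of these genes. The whole ileal list of 7 genes summed to 447, 446 and 689 FPKM in HH_Ctrl and 321, 248 and 291 FPKM in LL_Ctrl. Among the irradiated libraries it summed to 347, 321 and 1364 FPKM in HH_WBI and 257, 104 and 594 FPKM in LL_WBI, so LL_WBI 3 lay below HH_Ctrl 3. Pdx1, a transcription factor of duodenum and pancreas, went the other way, at 9.33, 29.1 and 0.0510 FPKM in LL_WBI 1, 2 and 3 and at 0.180, 0.156 and 0.0360 FPKM in HH_WBI. In the controls Pdx1 was at 0.784, 7.37 and 4.04 FPKM in LL_Ctrl and at most 0.139 FPKM in HH_Ctrl. The colon marker Hoxb13 was at or near 0 in all 12 libraries.

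Vil1 (villin, a protein of the brush border) was at 889.9, 812 and 1063 FPKM in HH_WBI and 763, 402 and 874 FPKM in LL_WBI, and Cdx2, the transcription factor that specifies intestinal epithelium, at 56.4, 63.9 and 54.8 against 44.97, 19.5 and 43.4 FPKM. LL_WBI 2 was the lowest of the 6 libraries for both. Over all 13049 genes tested, the log2 values of pairs of HH_WBI libraries correlated at r = 0.967 to 0.969 and those of pairs of LL_WBI libraries at r = 0.88 to 0.942. LL_WBI 3 correlated at r = 0.914 and 0.88 with LL_WBI 1 and 2, and at r = 0.953 to 0.959 with the HH_WBI libraries. It was thus closer to every HH_WBI library than to its own group. These values describe libraries that differ in composition across genes. The summed FPKM of a library lay between 532489 and 620029. The number of reads is not recorded in the values, and the size of the smallest steps between low values put the depth at 0.733 (LL_WBI 3) to 1.07 times that of LL_Ctrl 1.

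**Figure D1:**
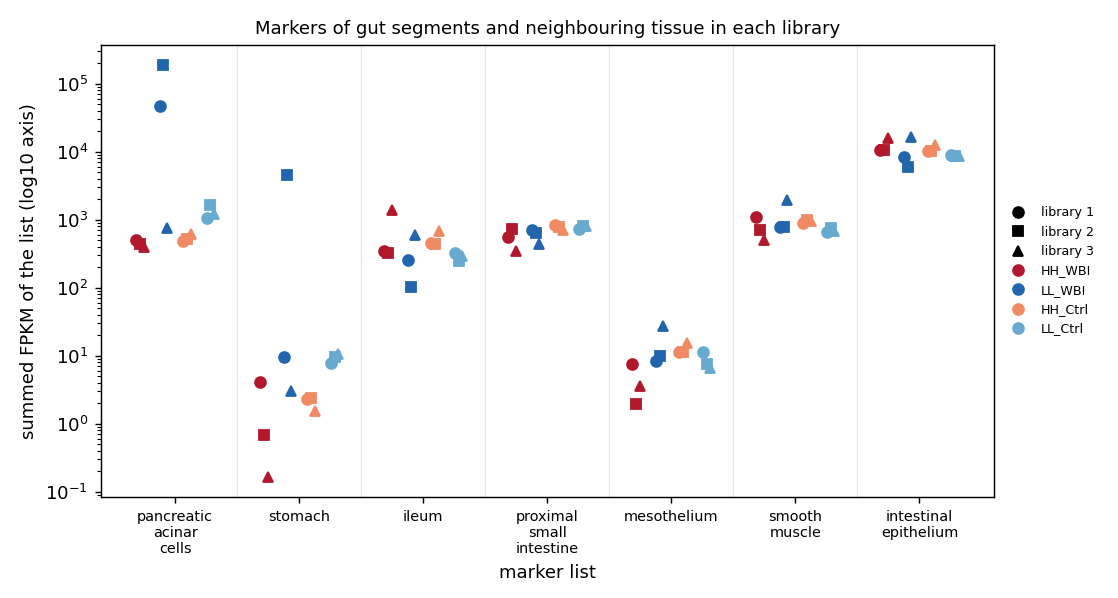
Summed FPKM (log10 axis) of 7 marker lists, named along the x axis, in each of the 12 libraries. Colour gives the group and symbol shape the library number. Pancreatic acinar genes reach 46294 and 186220 FPKM in LL_WBI 1 and 2, stomach genes stand out in LL_WBI 2, and the ileal list is highest in HH_WBI 3 at 1364 FPKM.

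Genes of the circadian clock separated the irradiated groups. The clock is a feedback loop in which the activators BMAL1 (Arntl) and CLOCK bind E-boxes (CACGTG) and drive the Per and Cry repressors, while the PAR bZIP factors Dbp, Tef and Hlf act on D-boxes (TTATGTAA and its reverse TTACATAA) and Nr1d1 (REV-ERB alpha) represses Arntl. The repressors Per2, Per3, Cry1 and Cry2 and the PAR bZIP genes Tef and Hlf were higher in every HH_WBI library than in any LL_WBI library, Per1 and Dbp overlapped, Nr1d1 was lower in HH_WBI without overlap, and the activators overlapped between the groups. Of the 17 clock genes tested, 10 were higher and 1 was lower in HH_WBI at an unadjusted p under 0.05, against 5.55% and 5.62% of all genes, and the median difference was 1.06 against 0.00 over all genes. In 9 of the 17 the groups did not overlap with HH_WBI higher (8.42% of all genes).

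Per2, a core repressor, was at 11.3, 7.65 and 9.92 FPKM in HH_WBI 1, 2 and 3 and at 2.07, 2.15 and 2.50 FPKM in LL_WBI 1, 2 and 3. Every HH_WBI library exceeded the highest LL_WBI library by more than 3 times. The log2 difference was 2.04 ± 0.23 (limma adjusted p = 0.0813), shared with Sprr2a1 and Tnnt2 as the smallest adjusted p of all genes. Per3 was at 5.04, 2.38 and 3.06 FPKM in HH_WBI and 0.408, 0.488 and 0.513 FPKM in LL_WBI, a difference of 2.59 ± 0.35 (adjusted p = 0.116). Cry2, a repressor that acts with the PER proteins, was at 6.56, 7.35 and 6.89 FPKM in HH_WBI and 2.46, 2.43 and 3.47 FPKM in LL_WBI, a difference of 1.302 ± 0.22 (adjusted p = 0.239). Again no library of the other group came between. Cry1 was at 8.41, 10.2 and 8.10 against 4.24, 2.85 and 6.14 FPKM, a difference of 1.06 ± 0.29.

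Tef was at 31.5, 16.9 and 21.9 against 10.3, 9.18 and 10.1 FPKM, a difference of 1.20 ± 0.25 (limma adjusted p = 0.3), with all 3 HH_WBI libraries above all 3 LL_WBI libraries. The related Hlf (3.82, 2.08 and 1.49 against 1.21, 0.603 and 0.643 FPKM) also did not overlap, whereas Dbp did (27.0, 7.57 and 17.3 against 8.99, 2.22 and 3.92 FPKM), since LL_WBI 1 lay above HH_WBI 2. Bhlhe40, a repressor that competes for E-boxes, differed by 0.81 ± 0.20 and Ciart, a further repressor of the loop, by 1.29 ± 0.45.

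Nr1d1 was at 20.8, 3.95 and 17.8 FPKM in HH_WBI and 46.4, 23.0 and 25.8 FPKM in LL_WBI, with HH_WBI 2 far below the other libraries and a difference of -1.40 ± 0.59. The activator genes were closer together. Arntl was at 4.78, 9.64 and 6.09 against 10.7, 5.51 and 10.7 FPKM (95% interval of the difference -1.18 to 0.41) and Clock at 7.46, 6.84 and 4.35 against 5.29, 5.95 and 7.93 FPKM (95% interval -0.68 to 0.57). Per1 differed by 0.13, with an interval of -0.29 to 0.55, and its sign turned with the pancreatic genes removed (-0.08) and with GC and length trends removed (-0.07).

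Clock genes also differed between the untreated groups. Per2 was at 10.1, 7.67 and 9.90 FPKM in HH_Ctrl and 0.897, 1.62 and 2.09 FPKM in LL_Ctrl, a difference of 2.57 ± 0.29. Nr1d1 was at 1.14, 1.58 and 6.97 against 31.7, 31.4 and 29.6 FPKM, a difference of -3.66 ± 0.60. Over the clock list the median was 0.97 between the controls, against -0.14 over all genes. There 9 members were higher and 4 lower at an unadjusted p under 0.05 (16.3% and 36.4% of all genes). For Per2 the irradiated difference minus the control difference was -0.53 (adjusted p = 0.428 in a limma fit of all 12 libraries). The hour at which tissue was taken is not given in the labels or the methods.

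With LL_WBI 3 left out, 5 clock genes were called higher, among them Per2 (adjusted p = 0.00302), Per3 (0.00767), Cry2 (0.0145) and Cry1 (0.0352), against 1.29% of all genes called higher and 1.24% called lower in that fit of limma.

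**Figure D2:**
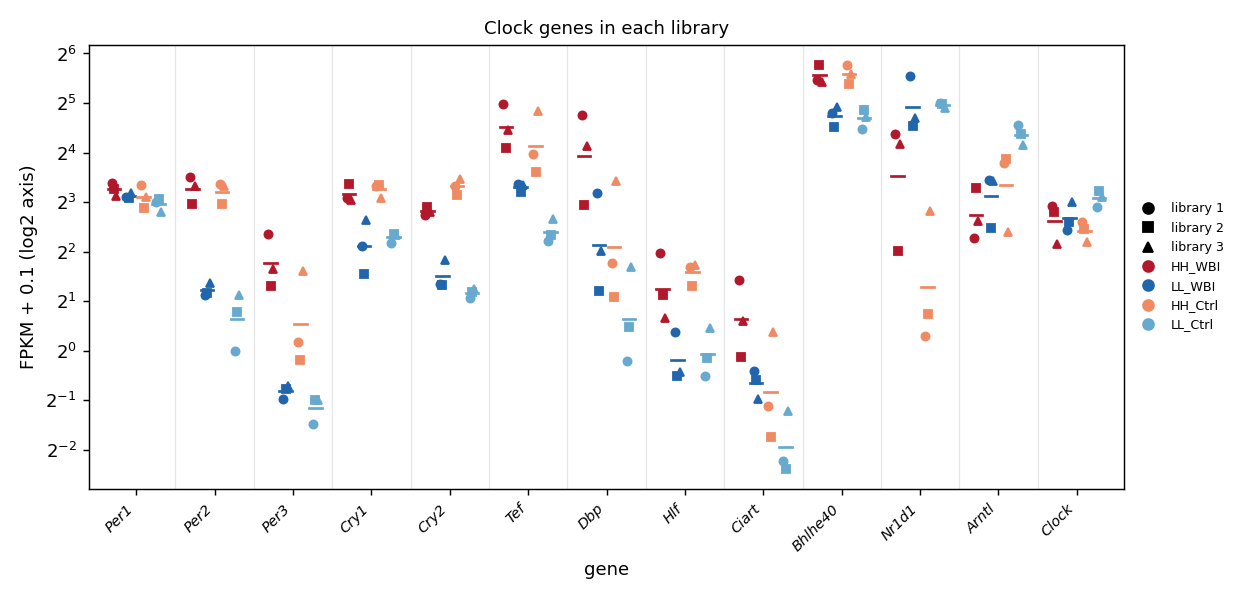
FPKM plus 0.1 (log2 axis) of 13 clock genes in each of the 12 libraries. Colour gives the group, symbol shape the library number and the bar the group mean of the log2 values. For Per2 the HH_WBI libraries lie at 7.65 to 11.3 FPKM and the LL_WBI libraries at 2.07 to 2.50 FPKM, and the 2 control groups are separated likewise.

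The sequences before the start of 4 of these genes are shown because the known clock elements can be read in them. The windows are the 250 bases upstream of the RefSeq start on the gene's strand (RefSeq, build GRCm38.p6), with every E-box and D-box in capitals. Per3 (chr4:151044666-151044915, minus strand) holds 2 D-boxes, at positions 46 and 93 of the window, and no E-box. Ciart (chr3:95882229-95882478, minus strand) holds 3 E-boxes, of which the last begins at position 207. Tef (chr15:81811164-81811413, plus strand) holds 1 E-box at position 113. Per1 (chr11:69098699-69098948, plus strand) holds 1 E-box at position 85 and is the contrast, since its level overlapped between the groups. The table holds a second window for Per1, with no E-box, and a second for Tef, with 1 E-box, which are not shown.
Per3: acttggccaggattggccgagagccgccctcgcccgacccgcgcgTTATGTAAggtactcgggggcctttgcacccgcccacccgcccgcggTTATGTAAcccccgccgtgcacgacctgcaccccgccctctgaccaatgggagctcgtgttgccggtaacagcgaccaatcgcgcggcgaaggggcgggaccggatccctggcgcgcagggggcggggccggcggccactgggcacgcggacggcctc
Ciart: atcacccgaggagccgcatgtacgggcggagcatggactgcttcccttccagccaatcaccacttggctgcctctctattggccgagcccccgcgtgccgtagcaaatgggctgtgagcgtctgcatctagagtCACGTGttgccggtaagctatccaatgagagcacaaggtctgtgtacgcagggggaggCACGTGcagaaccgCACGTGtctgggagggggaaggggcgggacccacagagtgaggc
Tef: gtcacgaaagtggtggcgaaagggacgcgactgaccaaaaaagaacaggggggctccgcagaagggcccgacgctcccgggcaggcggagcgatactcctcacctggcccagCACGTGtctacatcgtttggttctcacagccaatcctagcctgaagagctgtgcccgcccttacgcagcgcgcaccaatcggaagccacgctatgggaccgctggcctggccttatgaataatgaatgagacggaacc
Per1: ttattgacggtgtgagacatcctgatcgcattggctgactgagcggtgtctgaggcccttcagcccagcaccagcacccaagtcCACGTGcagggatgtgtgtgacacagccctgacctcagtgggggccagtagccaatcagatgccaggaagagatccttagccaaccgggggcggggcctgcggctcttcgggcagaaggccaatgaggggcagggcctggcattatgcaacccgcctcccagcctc
Of the 18 clock genes, 15 had a window in the RefSeq table, 5 had an E-box in at least 1 window and 1 had a D-box. Over all 32851 windows of 27025 genes, 6.02% held an E-box, which reads the same on both strands, and 0.819% a D-box on either strand. Ciart and Tef with their E-boxes and Per3 without one were all higher in HH_WBI, and Per1 with an E-box overlapped. A match describes these letters only.

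Small proline-rich proteins and several cytochrome P450 enzymes of the Cyp2c family had lower values in HH_WBI. The Sprr2a genes encode cross-linked proteins first known from the cell envelope of skin and are also made by gut epithelium, and the Cyp2c enzymes oxidise fatty acids and foreign compounds. Of the 4 small proline-rich genes tested, 3 were lower at an unadjusted p under 0.05, against 5.62% of all genes, and the median was -1.75. The P450 list as a whole did not lean one way, with 5 of 34 members higher and 8 lower and a median of -0.14, which was 0.01 with GC and length trends removed and 0.15 without LL_WBI 1 and 2.

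Sprr2a1 was at 10.0, 8.00 and 13.1 FPKM in HH_WBI 1, 2 and 3 and at 42.1, 45.8 and 42.2 FPKM in LL_WBI 1, 2 and 3, a difference of -2.08 ± 0.22 (limma adjusted p = 0.0813). The LL_WBI libraries varied little and every one lay more than 3 times above the highest HH_WBI library. Sprr2a2 was at 624, 541 and 943 against 2471, 2874 and 2091 FPKM, a difference of -1.85 ± 0.32 (adjusted p = 0.242). Sprr2a3 was at 7.37, 6.198 and 18.4 against 24.6, 39.8 and 27.7 FPKM, a difference of -1.66 ± 0.40. These genes are near-identical copies, so reads may be shared among them and their values are not independent. Between the controls the gap was wider, at 2.77, 3.99 and 3.74 FPKM in HH_Ctrl and 64.5, 63.5 and 56.4 FPKM in LL_Ctrl for Sprr2a1, a difference of -4.11 ± 0.14. For Sprr2a1 the difference between the irradiated groups minus that between the controls was 2.03 (adjusted p = 0.0103, limma over 12 libraries).

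Cyp2c55 was at 1.19, 0.610 and 1.56 FPKM in HH_WBI and 78.0, 16.0 and 12.5 FPKM in LL_WBI, a difference of -4.45 ± 0.65 (limma adjusted p = 0.185). LL_WBI 1 was several times above the other LL_WBI libraries and all 3 lay above HH_WBI. Cyp2c65 was at 49.2, 51.8 and 38.4 against 251, 182 and 94.2 FPKM (-1.82 ± 0.35, adjusted p = 0.278) and Cyp2c66 at 2.70, 1.77 and 0.958 against 88.8, 29.0 and 5.30 FPKM (-3.77 ± 0.88). Cyp2c29 overlapped, at 0.969, 0.471 and 0.132 against 70.5, 18.2 and 0.771 FPKM. The opposite order was seen for Cyp3a44, at 3.70, 12.6 and 5.11 FPKM in HH_WBI and 0.508, 0.193 and 1.12 FPKM in LL_WBI, a difference of 3.39 ± 0.60 (adjusted p = 0.242), and for Cyp4b1, at 145, 157 and 154 against 89.7, 66.3 and 117 FPKM. The controls differed in the same directions, by -5.83 for Cyp2c55 and 3.24 for Cyp3a44. With LL_WBI 3 left out, Sprr2a1 (adjusted p = 0.00323), Sprr2a2 (0.0284), Cyp2c55 (0.00279), Cyp2c65 (0.00279), Cyp2c66 (0.00123), Cyp2c29 (0.00159) and Cyp3a44 (0.00457) were called by limma.

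Conjugating enzymes, which attach glutathione, sulfate, glucuronic acid or methyl groups to foreign compounds, had lower values in HH_WBI as a group. Of 43 tested, 0 were higher and 16 lower at an unadjusted p under 0.05 (5.62% of all genes), at a median of -1.05. With GC and length trends removed 2 were higher and 7 lower, at -0.75. The glutathione transferase Gstk1 was at 27.8, 45.7 and 28.0 FPKM in HH_WBI and 84.5, 87.6 and 53.8 FPKM in LL_WBI (-1.16 ± 0.28). Gstt1 was at 22.3, 35.4 and 15.7 against 88.1, 68.1 and 35.6 FPKM (-1.36 ± 0.40) and Gstm2 at 17.9, 15.3 and 11.9 against 42.5, 47.0 and 18.2 FPKM (-1.15 ± 0.36). In all of these LL_WBI 3 was the lowest library of its group, but still above every HH_WBI library. The sulfotransferase Sult1d1 differed by -1.07 ± 0.31, the glucuronosyltransferase Ugt2b36 by -1.65 ± 0.51 and the thiopurine methyltransferase Tpmt by -0.97 ± 0.25, without overlap. The median was -1.08 between the controls. Against LL_WBI 3 alone, with LL_WBI 1 and 2 left out, the single library was assumed to vary like the others. The median of the list was then 0.04, so the list as a whole was not lower against that library, while the genes named above were. The part of the pancreatic transcripts in this was not tested.

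Genes of digestion and absorption had higher values in HH_WBI. The lists of brush border enzymes, amino acid transporters and fat absorption genes held more members higher than lower, as did the metallothioneins. Of 17 brush border enzymes, 9 were higher and 1 was lower at an unadjusted p under 0.05 (5.55% and 5.62% of all genes) at a median of 1.42. Of 17 amino acid and peptide transporters, 6 were higher and 0 lower (median 0.75, against 0.53 between the controls). Of 18 genes of fat absorption, 5 were higher and 1 was lower (0.31), and of 9 genes of sugar transport and fructose breakdown, 2 were higher and 0 lower (0.50). Against LL_WBI 3 alone the median of the brush border list was 0.34, so most of its size came from LL_WBI 1 and 2. Between the controls it was 0.38.

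Mgam, which encodes maltase-glucoamylase, an enzyme that ends starch digestion, was at 1471, 972 and 977 FPKM in HH_WBI 1, 2 and 3 and 499.9, 379.6 and 383 FPKM in LL_WBI 1, 2 and 3. The groups were well apart, with a difference of 1.42 ± 0.28 (limma adjusted p = 0.3), and between the controls it was 0.82 ± 0.15. Sis (sucrase-isomaltase) was at 637, 267 and 366 against 113, 78.1 and 238 FPKM (1.63 ± 0.46), with HH_WBI 2 close above LL_WBI 3. The peptidases Enpep (586, 454 and 918 against 230.2, 74.0 and 386 FPKM), Ace (913, 1211 and 648 against 508, 124 and 562 FPKM) and Anpep (3528, 3909.7 and 4882 against 2044, 383 and 2670.3 FPKM) did not overlap either. LL_WBI 2 was the lowest library for all of these peptidases. Alpi, the intestinal alkaline phosphatase, was at 595, 569.5 and 563 FPKM in HH_WBI and 1084, 2144 and 362 FPKM in LL_WBI, so LL_WBI 1 and 2 lay above HH_WBI and LL_WBI 3 below it.

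Apob, the structural protein of the chylomicrons that carry absorbed fat, was at 563, 926 and 627 FPKM in HH_WBI and 216, 177 and 454 FPKM in LL_WBI (1.41 ± 0.39). The sterol exporter Abcg8 differed by 0.96 ± 0.27 and the triglyceride synthase Dgat2 by 0.83 ± 0.29, both without overlap, and the lipoprotein receptor Scarb1 by -1.48 ± 0.59, also without overlap. Slc5a1, the sodium-coupled glucose transporter SGLT1, was at 1166, 884 and 1138 against 709.7, 463 and 543 FPKM (0.91 ± 0.28). Slc6a19, the main transporter of neutral amino acids, was at 379, 394 and 586 against 202, 105 and 258 FPKM (1.33 ± 0.36), and the nucleoside transporter Slc28a2 at 209, 234 and 356 against 73.2, 99.5 and 108 FPKM (1.48 ± 0.28). All 3 transporters had every HH_WBI library above every LL_WBI library.

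G6pc, the glucose-6-phosphatase that releases free glucose and is induced by fasting, was at 40.4, 123 and 59.1 FPKM in HH_WBI and 11.2, 4.33 and 10.0 FPKM in LL_WBI, a difference of 3.06 ± 0.47 (limma adjusted p = 0.198). The lowest HH_WBI library was more than 3 times above the highest LL_WBI library. The controls were at 243, 207 and 190.5 FPKM in HH_Ctrl and 35.4, 32.6 and 35.0 FPKM in LL_Ctrl (2.63 ± 0.10). Acox2, an oxidase of peroxisomes, was at 13.8, 15.4 and 18.4 against 7.38, 4.15 and 4.68 FPKM (1.57 ± 0.26, adjusted p = 0.198). Eif4ebp3, which binds the cap-binding factor eIF4E and restrains translation, was at 26.0, 89.6 and 50.6 against 6.75, 5.07 and 10.8 FPKM (2.75 ± 0.45, adjusted p = 0.198).

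Mt2, a metallothionein that binds zinc and copper, was at 622, 964 and 234 FPKM in HH_WBI and 73.3, 134 and 106 FPKM in LL_WBI (2.36 ± 0.50, adjusted p = 0.3). Mt1 was at 1169, 1882 and 483 against 202, 269.6 and 245 FPKM (2.11 ± 0.46). HH_WBI 3 was the lowest HH_WBI library for both and still above LL_WBI. Mt2 was at 432, 273 and 619 FPKM in HH_Ctrl and 15.1, 4.92 and 11.7 FPKM in LL_Ctrl, and the difference between the irradiated groups minus that between the controls was -3.08 (adjusted p = 0.033, limma over 12 libraries). Fkbp5, a co-chaperone induced by glucocorticoids, was at 35.6, 47.1 and 54.9 against 10.1, 20.96 and 22.5 FPKM (1.42 ± 0.33), and between the controls it differed by 2.93. Gclc, the catalytic subunit of the enzyme that limits glutathione synthesis, was at 44.4, 31.3 and 46.4 against 15.8, 16.0 and 17.1 FPKM (1.297 ± 0.21, adjusted p = 0.198), and its partner subunit Gclm differed by 0.71 ± 0.26. For Gclc the difference between the controls was 0.39.

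Inducible antimicrobial genes of the epithelium had higher values in HH_WBI. These include the Reg3 lectins, which act on bacteria at the mucosal surface, and Duox2, which makes hydrogen peroxide there. Of 10 tested, 5 were higher and 0 lower at an unadjusted p under 0.05 (5.55% and 5.62% of all genes), at a median of 2.37. The mucin Muc3a was also higher and the lectin Reg4 was lower, in each case without overlap.

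Reg3g was at 7545, 2705 and 4964 FPKM in HH_WBI 1, 2 and 3 and 148, 269.6 and 1807 FPKM in LL_WBI 1, 2 and 3, a difference of 3.49 ± 0.85 (limma adjusted p = 0.367). LL_WBI 3 stood nearer to HH_WBI than to the other LL_WBI libraries. Reg3b was at 14039.9, 7653 and 9329 against 446, 1425 and 3094 FPKM (2.997 ± 0.67) and Duox2 at 16.7, 9.28 and 33.4 against 0.991, 1.79 and 13.7 FPKM (2.51 ± 0.87). For Duox2 the groups overlapped, since LL_WBI 3 lay above HH_WBI 2. Against LL_WBI 3 alone the median of the list was 0.44, and without LL_WBI 3 it was 3.52, with 5 members called higher by limma (1.29% of all genes), Reg3g at an adjusted p of 0.00147 and Reg3b at 0.0113 among them. Between the controls the median was 2.56.

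Muc3a, a mucin anchored in the brush border membrane, was at 25.9, 20.9 and 19.5 FPKM in HH_WBI and 4.997, 6.58 and 7.30 FPKM in LL_WBI. The libraries of each group lay close together and the groups far apart, with a difference of 1.80 ± 0.22 (limma adjusted p = 0.0832). The controls were at 10.6, 15.2 and 14.5 FPKM in HH_Ctrl and 6.76, 4.68 and 5.14 FPKM in LL_Ctrl. Reg4, a secreted lectin of endocrine and goblet cells, was at 62.7, 63.8 and 36.5 against 156, 142 and 139.9 FPKM (-1.47 ± 0.26, adjusted p = 0.242), and Fam3d, a secreted protein of the gut, at 67.9, 75.8 and 69.0 against 192, 162 and 131 FPKM (-1.17 ± 0.22, adjusted p = 0.259). Of 31 Paneth cell genes, 0 were higher and 0 lower at an unadjusted p under 0.05, at a median of 0.21 that was -0.00 with the pancreatic genes removed and -1.72 against LL_WBI 3 alone. The alpha-defensin Defa22 was at 2201, 433 and 4649 FPKM in HH_WBI and 48.0, 39.4 and 5347 FPKM in LL_WBI, highest in the third library of each group. Without LL_WBI 3, 6 Paneth genes were called higher, Defa22 among them (adjusted p = 0.00912). Defensin genes are near-identical copies whose reads may be shared.

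Genes of protein synthesis had lower values in HH_WBI, by small amounts across whole complexes. Of 82 genes for proteins of the cytosolic ribosome, 81 had a negative difference, 39 were lower and 0 higher at an unadjusted p under 0.05 (5.62% lower among all genes), and 61 were lower without overlap (8.64%). The median was -0.49. Between the controls it was 0.13, against -0.14 over all genes, and 30 members were higher and 3 lower (16.3% and 36.4% of all genes). The summed level of the list was 22163, 23244 and 24870 FPKM in HH_WBI and 35432, 27179 and 34044 FPKM in LL_WBI, so HH_WBI lay below LL_WBI in every library. The median stayed negative under each scaling, at -0.29 with GC and length trends removed, -0.70 with the pancreatic genes removed and -0.49 with median-ratio scaling.

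Rpl22l1, a paralog of the ribosomal protein Rpl22, was at 14.2, 16.6 and 18.9 FPKM in HH_WBI 1, 2 and 3 and 47.6, 29.8 and 50.3 FPKM in LL_WBI 1, 2 and 3 (-1.33 ± 0.25, limma adjusted p = 0.26). Rpl10 was at 92.8, 98.4 and 139.6 against 245, 237 and 259 FPKM (-1.19 ± 0.23, adjusted p = 0.278) and Rps27a at 167, 198 and 204 against 359.9, 283 and 393 FPKM (-0.85 ± 0.23). None of these genes overlapped between the groups. Ribosomal protein genes have many processed copies in the genome, which may take part of their reads. Short transcripts dominate this list, and with GC and length trends removed its median moved by over 1.5 times, as given above.

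Nuclear genes of the mitochondria leaned the same way. Of 78 genes of the mitochondrial ribosome, 13 were lower and 0 higher at an unadjusted p under 0.05 (5.62% of all genes lower), at a median of -0.33. Of 38 genes of respiratory complex I, 8 were lower and 0 higher (-0.37). Of 45 genes of complexes II to V, 4 were lower and 1 was higher (-0.27), near the share of all genes. These counts moved widely with the scaling. With the pancreatic genes removed, 54, 25 and 25 members were lower, at medians of -0.55, -0.58 and -0.48, but 2215 of all genes were then lower. With GC and length trends removed, 11, 2 and 1 were lower and 1, 0 and 1 higher, at -0.19, -0.08 and -0.07. There 689 of all genes were lower. Between the controls the medians were -0.04, -0.14 and -0.11, against -0.14 over all genes. The 13 genes encoded in mitochondrial DNA had 0 members past an unadjusted p of 0.05 in either direction, at a median of 0.04, which was -0.18 with the pancreatic genes removed. Ndufb2, a subunit of complex I, was at 21.7, 23.8 and 21.8 FPKM in HH_WBI and 46.3, 30.0 and 38.2 FPKM in LL_WBI (-0.74 ± 0.21), and Mrps22 of the mitochondrial ribosome at 10.3, 11.9 and 10.9 against 29.5, 16.1 and 19.3 FPKM (-0.92 ± 0.25). Cox16, an assembly factor of complex IV, was at 10.2, 10.8 and 10.8 against 24.1, 21.6 and 22.1 FPKM, with little spread in either group (-1.08 ± 0.17, limma adjusted p = 0.198), and Dnajc19 of the mitochondrial inner membrane at 18.2, 19.5 and 18.7 against 49.4, 37.1 and 35.3 FPKM (-1.09 ± 0.20, adjusted p = 0.259). Ppp1r7, a regulator of protein phosphatase 1, was at 2.89, 3.37 and 3.50 against 8.84, 6.54 and 7.20 FPKM (-1.18 ± 0.21, adjusted p = 0.259).

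Of 25 genes for folding in the endoplasmic reticulum, 9 were lower and 0 higher at a median of -0.36 (5.62% of all genes lower). Of 37 proteasome genes, 6 were lower and 0 higher (-0.25). For the proteasome 27 were lower with the pancreatic genes removed (-0.46) and 4 lower and 1 higher with GC and length trends removed (-0.12). Hspa5, the central chaperone BiP, was at 113, 119.7 and 117 FPKM in HH_WBI and 215, 238 and 264 FPKM in LL_WBI (-1.03 ± 0.20, limma adjusted p = 0.278), and the chaperone Hyou1 differed by -0.72 ± 0.19. Both were without overlap. Between the controls Hspa5 differed by -1.66 ± 0.15. Nupr1, a stress-induced nuclear protein also abundant in injured pancreas, was at 25.3, 13.6 and 34.2 against 58.8, 278 and 72.8 FPKM, highest in LL_WBI 2, and the asparagine synthetase Asns at 17.6, 14.7 and 15.2 against 24.5, 36.0 and 21.7 FPKM (-0.76 ± 0.23), again highest in LL_WBI 2. For Asns the controls stood in the opposite order (0.58), and the comparisons differed by -1.33 (adjusted p = 0.0315, limma over 12 libraries).

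**Figure D3:**
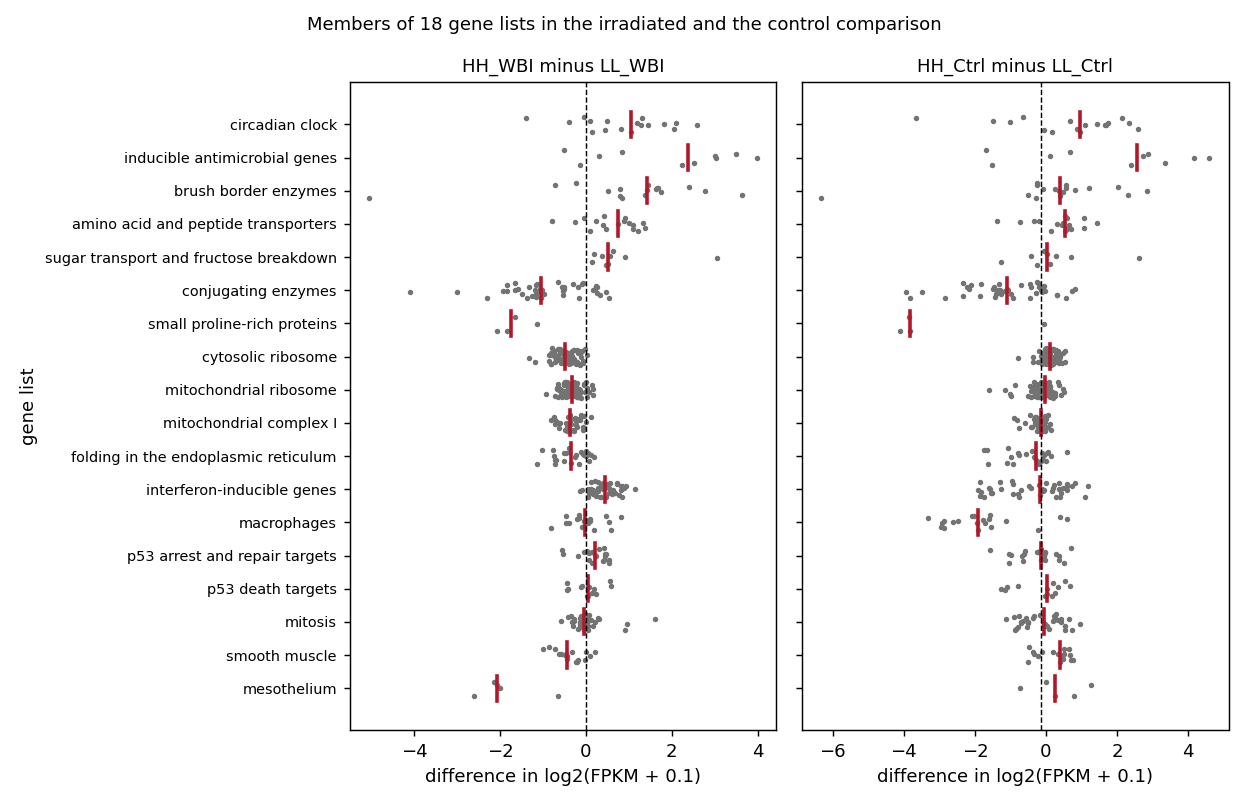
Difference in log2(FPKM + 0.1) of every tested member of 18 gene lists (y axis), for HH_WBI minus LL_WBI on the left and HH_Ctrl minus LL_Ctrl on the right. Each point is a gene, the red bar is the list's median and the dashed line the median of all genes tested. Members of the cytosolic ribosome lie left of 0 between the irradiated groups (median -0.49) and not between the controls (0.13), while clock and antimicrobial genes lie to the right in both.

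Immune transcripts of lymphoid follicles and of IgG and IgM had higher values in HH_WBI, while lists of macrophages, T cells and neutrophils did not lean one way beyond the background. Cxcl13, the chemokine with which follicular stroma attracts B cells, was at 24.6, 27.0 and 11.99 FPKM in HH_WBI 1, 2 and 3 and 3.10, 2.59 and 3.54 FPKM in LL_WBI 1, 2 and 3. Every HH_WBI library was more than 3 times above LL_WBI, with a difference of 2.67 ± 0.32 (limma adjusted p = 0.0832). It was at 3.64, 0.719 and 4.05 FPKM in HH_Ctrl and 0.805, 1.13 and 0.706 FPKM in LL_Ctrl. Without HH_WBI 3, Cxcl13 was the only gene called, at an adjusted p of 0.0456, and without LL_WBI 3 its adjusted p was 0.00345. Ccl19, which attracts cells bearing CCR7, was at 3.02, 5.18 and 1.67 against 0.780, 0.395 and 0.517 FPKM (2.25 ± 0.45), and the B cell receptor component Cd79a at 5.54, 5.50 and 5.33 against 3.05, 2.71 and 3.29 FPKM (0.84 ± 0.20). Lymphoid tissue was unevenly present in the controls, where Cd79a was at 27.4, 2.45 and 29.5 FPKM in HH_Ctrl and 4.39, 5.89 and 5.07 FPKM in LL_Ctrl. Of 8 B cell and follicle genes, 2 were higher and 0 lower at an unadjusted p under 0.05 (5.55% of all genes higher). In this list 6 had a positive and 2 a negative difference, at a median of 0.57, and the median between the controls was larger, at 1.06.

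The immunoglobulin heavy chain gene Ighg2b was at 58.5, 58.2 and 25.1 FPKM in HH_WBI and 9.09, 2.76 and 3.22 FPKM in LL_WBI (3.32 ± 0.49, limma adjusted p = 0.185). Ighm was at 50.6, 47.8 and 28.9 against 14.6, 11.03 and 5.23 FPKM (2.11 ± 0.39, adjusted p = 0.259) and Ighg3 at 10.2, 12.003 and 5.25 against 1.73, 2.02 and 0.407 FPKM (2.80 ± 0.56). The groups did not overlap for any of them, but HH_WBI 3 was always the lowest of its group. The light chain gene Iglc1 was lower in HH_WBI, at 38.4, 19.5 and 46.6 against 53.7, 82.1 and 72.6 FPKM (-1.06 ± 0.34). The plasma cell list held 4 of 14 members higher and 1 lower (5.55% and 5.62% of all genes) at a median of 0.12, which was -0.08 with the pancreatic genes removed. Of 160 immunoglobulin variable segments, 8 were higher and 17 lower (-0.08, and 0.18 with GC and length trends removed). With LL_WBI 3 left out, Ighg2b (adjusted p = 0.0143), Ighm (0.0203) and Ighg3 (0.0151) were called higher by limma, and these were the 3 members of the plasma cell list called.

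Mertk, a receptor with which phagocytes take up dead cells, was at 47.2, 47.8 and 54.5 FPKM in HH_WBI and 20.0, 15.5 and 18.9 FPKM in LL_WBI. Each group was tight and the difference was 1.46 ± 0.19 (limma adjusted p = 0.111), and the controls were at 50.9, 38.1 and 50.3 FPKM in HH_Ctrl and 25.6, 26.5 and 25.8 FPKM in LL_Ctrl. Cx3cr1, the fractalkine receptor of gut macrophages, overlapped at 5.54, 2.99 and 4.76 against 2.41, 3.14 and 3.35 FPKM. Of 20 macrophage genes, 1 was higher and 0 lower, at a median of -0.02 that was 0.12 with GC and length trends removed and 0.25 without LL_WBI 3 and HH_WBI 3. Between the controls the macrophage median was -1.92, and Cx3cr1 was at 0.432, 0.180 and 0.550 FPKM in HH_Ctrl and 2.25, 2.67 and 3.40 FPKM in LL_Ctrl. The irradiated and control differences of Cx3cr1 were apart by 3.16 (adjusted p = 0.0103, limma over 12 libraries).

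Of 6 neutrophil genes and 17 T cell genes, 0 were higher and 0 lower at an unadjusted p under 0.05, at medians of -0.71 and -0.29. Without LL_WBI 3 and HH_WBI 3 the neutrophil median was 0.75. The neutrophil list rested on few transcripts, at 23.0, 15.6 and 11.3 summed FPKM in HH_WBI and 13.3, 22.5 and 48.5 in LL_WBI. Mmp9, a gelatinase of neutrophil granules, was at 10.1, 4.44 and 6.19 FPKM in HH_WBI and 8.62, 6.19 and 23.4 FPKM in LL_WBI, and at 0.703, 0.852 and 0.851 FPKM in HH_Ctrl and 10.9, 10.5 and 9.35 FPKM in LL_Ctrl. The chemokine Ccl17 was at 0.504, 0.408 and 0.604 against 1.37, 2.12 and 6.21 FPKM (-2.19 ± 0.52) and Ccl24 at 1.19, 1.00 and 0.402 against 9.43, 1.79 and 6.42 FPKM (-2.46 ± 0.62), both lower in HH_WBI without overlap. Cxcl12, a chemokine of stromal cells, overlapped, at 23.9, 17.6 and 20.9 against 11.7, 10.6 and 19.9 FPKM, with a control difference of -1.45.

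Interferon-inducible genes, which act against viruses and intracellular microbes, leaned higher in HH_WBI. Of 41 tested, 39 had a positive difference and 8 were higher and 0 lower at an unadjusted p under 0.05 (5.55% of all genes higher), at a median of 0.44. Between the controls 10 were higher and 18 lower (16.3% and 36.4% of all genes), at a median of -0.18, against -0.14 over all genes. Irf7, the factor that amplifies the interferon response, was at 103, 161 and 146 FPKM in HH_WBI and 75.0, 45.4 and 102 FPKM in LL_WBI (0.93 ± 0.33). Oas3 was at 15.5, 24.9 and 14.5 against 14.0, 7.10 and 10.1 FPKM (0.82 ± 0.31), Stat2 at 15.2, 20.4 and 15.2 against 9.65, 8.14 and 14.97 FPKM (0.66 ± 0.27) and Mx1 at 3.06, 3.96 and 1.62 against 0.825, 0.934 and 2.004 FPKM (1.15 ± 0.44). HH_WBI 2 was the highest library for each. The lean depended on the libraries of the LL_WBI group, since the median was -0.16 against LL_WBI 3 alone, with 0 higher and 8 lower, and 26 members were higher and 0 lower with LL_WBI 3 and HH_WBI 3 left out. With the pancreatic genes removed the median was 0.23, with 1 higher and 0 lower. Of 9 MHC class II genes all had a positive difference at a median of 0.37, with 0 past an unadjusted p of 0.05, and the median turned to -0.49 against LL_WBI 3 alone.

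Few genes of the DNA damage response and of cell division passed an unadjusted p of 0.05 between the irradiated groups. Cdkn1a, the p53 target that stops the cell cycle, was at 233, 213 and 267 FPKM in HH_WBI 1, 2 and 3 and 157, 159.6 and 221 FPKM in LL_WBI 1, 2 and 3, with a 95% interval of the log2 difference of -0.11 to 0.96. Mdm2, which degrades p53 and is induced by it, was at 25.03, 23.3 and 17.9 against 16.9, 20.8 and 22.4 FPKM (interval -0.36 to 0.63), and Bax, which opens the outer mitochondrial membrane in apoptosis, at 53.8, 59.2 and 56.2 against 50.6, 50.6 and 67.5 FPKM (interval -0.44 to 0.48). The libraries of both groups interleaved for Mdm2 and Bax, and for Cdkn1a HH_WBI 2 lay just under LL_WBI 3. The sign of Bax and Mdm2 turned to -0.20 and -0.08 with the pancreatic genes removed, where the median of all genes was -0.21. Trp53 was at 28.8, 26.1 and 23.1 against 35.2, 21.6 and 28.0 FPKM (interval -0.62 to 0.43), and the histone gene H2ax, whose protein is phosphorylated at DNA breaks, at 15.7, 17.2 and 14.6 against 26.4, 8.77 and 12.01 FPKM (interval -0.68 to 1.02). These intervals leave room for differences of up to 1.02 on the log2 scale in H2ax, so equality was not shown.

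Between the controls Mdm2 was at 7.70, 6.13 and 7.85 FPKM in HH_Ctrl and 15.6, 14.3 and 14.4 FPKM in LL_Ctrl (-1.03 ± 0.12), and the irradiated and control differences were apart by 1.16 (adjusted p = 0.0195, limma over 12 libraries). Of 21 p53 targets of arrest and repair, 1 was higher and 0 lower at an unadjusted p under 0.05, at a median of 0.22. That gene was Psrc1, a spindle protein, at 16.6, 15.2 and 14.0 against 8.93, 10.5 and 11.9 FPKM (0.55 ± 0.20). Of 13 p53 targets of cell death, 1 was higher and 0 lower, namely Pidd1, an adaptor that activates caspases, at 4.56, 3.46 and 2.91 against 2.35, 2.36 and 2.44 FPKM (0.57 ± 0.24). The median of this list was 0.04, -0.17 with the pancreatic genes removed and -0.26 against LL_WBI 3 alone. Of 12 gasdermin and inflammasome genes, 0 were higher and 0 lower (median 0.22, and -0.20 against LL_WBI 3 alone).

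Mki67, a marker of dividing cells, was at 6.10, 6.91 and 2.64 FPKM in HH_WBI and 3.88, 1.56 and 2.61 FPKM in LL_WBI, with overlap and an interval of -0.09 to 1.91. Of 35 mitosis genes, 1 was higher and 0 lower (median -0.04, and 0.28 against LL_WBI 3 alone). The mitosis list summed to 260.3, 286 and 225 FPKM in HH_WBI and 521, 166 and 199 FPKM in LL_WBI, so LL_WBI 1 lay above and LL_WBI 2 and 3 below all HH_WBI libraries. Of 42 replication genes, 0 were higher and 2 lower (-0.09, and 0.16 against LL_WBI 3 alone), and of 37 repair genes, 0 were higher and 2 lower (-0.09). None of these shares was above the 5.55% and 5.62% of all genes. The cytokine Il6 was at 1.02, 1.16 and 0.205 against 0.971, 0.967 and 1.03 FPKM (interval -1.81 to 0.75) and Tnf at 2.58, 3.51 and 2.18 against 1.37, 1.61 and 3.15 FPKM (interval -0.34 to 1.296). Il10 did not pass the filter on low values.

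Genes of striated muscle and mesothelium had lower values in HH_WBI, while the lists of smooth muscle and enteric nerve depended on the libraries included. Tnnt2, the troponin T best known from heart muscle, was at 0.386, 0.344 and 0.532 FPKM in HH_WBI 1, 2 and 3 and 2.95, 5.16 and 6.91 FPKM in LL_WBI 1, 2 and 3, a difference of -3.23 ± 0.37 (limma adjusted p = 0.0813). The lowest LL_WBI library was more than 5 times above the highest HH_WBI library. The controls overlapped, at 2.04, 3.77 and 3.11 FPKM in HH_Ctrl and 2.50, 4.17 and 3.50 FPKM in LL_Ctrl, so HH_WBI stood below all 9 other libraries, and the irradiated and control differences were apart by -3.03 (adjusted p = 0.0107, limma over 12 libraries). Without LL_WBI 3 Tnnt2 was called (adjusted p = 0.00487).

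Ckm, the creatine kinase of skeletal muscle, was at 1.39, 0.997 and 1.22 against 2.88, 2.69 and 4.58 FPKM (-1.39 ± 0.30, limma adjusted p = 0.3), and the myosin light chain Myl1 at 0.739, 0.350 and 0.298 against 1.16, 0.991 and 2.61 FPKM (-1.54 ± 0.49). Of the 20 striated muscle genes in the list only 4 passed the filter, and 3 of these were lower at an unadjusted p under 0.05 (5.62% of all genes). For Myl1 the LL_WBI libraries raised the mean on which it was filtered. Of 17 smooth muscle genes, 0 were higher and 1 was lower at a median of -0.45, which turned to 0.29 without LL_WBI 3 and HH_WBI 3. The smooth muscle list summed to 1111, 701 and 511 FPKM in HH_WBI and 778, 783 and 1942 FPKM in LL_WBI, highest in LL_WBI 3. The mesothelium, which covers the outside of the gut, was marked by Msln at 1.18, 0.485 and 0.405 FPKM in HH_WBI and 2.17, 1.85 and 6.17 FPKM in LL_WBI (-2.06 ± 0.54) and by Upk3b at 1.27, 0.155 and 0.451 against 2.61, 1.71 and 8.77 FPKM (-2.61 ± 0.73). Of 5 mesothelial genes 4 were lower at an unadjusted p under 0.05 (5.62% of all genes). The mesothelial list summed to 7.53, 1.97 and 3.59 FPKM in HH_WBI and 8.50, 9.97 and 27.6 FPKM in LL_WBI, again highest in LL_WBI 3. How much of the outer wall and attached tissue each piece of intestine held was not recorded, and its part in the muscle values was not tested.

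Tubb3, a neuronal tubulin, was at 2.29, 1.55 and 1.16 against 2.96, 3.28 and 4.92 FPKM (-1.13 ± 0.32), and the neuropeptide gene Gal at 5.32, 4.08 and 2.83 against 6.85, 22.4 and 10.1 FPKM (-1.53 ± 0.43). Of 15 genes of enteric neurons and glia, 3 were lower and 0 higher at an unadjusted p under 0.05 (5.62% of all genes lower). Their median was -0.66, and -0.06 without LL_WBI 3 and HH_WBI 3, where 2 were higher and 2 lower. For Gal the controls stood in the opposite order, at 5.57, 4.15 and 7.99 FPKM in HH_Ctrl and 0.664, 1.81 and 1.25 FPKM in LL_Ctrl. Of 24 collagen genes and 19 endothelial genes, 0 were higher and 0 lower at an unadjusted p under 0.05. Their medians were 0.05 (-0.12 with GC and length trends removed and -0.19 with the pancreatic genes removed) and -0.16 (0.15 without LL_WBI 3 and HH_WBI 3). Of 13 fat cell genes, 1 was higher (Lipe, a lipase, 1.12 ± 0.35) and 1 was lower (Scd1, a fatty acid desaturase, at 6.32, 1.71 and 2.55 against 10.9, 8.46 and 51.7 FPKM).

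Of 16 enteroendocrine genes, 3 were lower and 0 higher at an unadjusted p under 0.05 (5.62% of all genes lower), at a median of -0.35. With GC and length trends removed 1 was lower, and against LL_WBI 3 alone the median was -0.24. Tph1, which makes serotonin in enterochromaffin cells, was at 3.32, 4.32 and 2.61 FPKM in HH_WBI and 7.77, 10.8 and 6.17 FPKM in LL_WBI (-1.24 ± 0.28). Cck (cholecystokinin) was at 12.4, 18.7 and 10.5 against 75.3, 56.7 and 14.2 FPKM and Ghrl (ghrelin) at 6.22, 11.4 and 3.38 against 38.02, 54.5 and 6.92 FPKM. Both overlapped, since LL_WBI 3 lay within the HH_WBI range, and both hormones are known for the proximal gut. Ddc, the decarboxylase that completes serotonin synthesis and is also made by absorptive cells, was at 25.7, 34.6 and 14.4 against 127, 85.1 and 59.1 FPKM (-1.87 ± 0.38, limma adjusted p = 0.3).

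Among the 15 genes named for the smallest p in the higher direction, 3 belong to none of the groups above. Nckap5 was at 7.18, 8.22 and 11.2 FPKM in HH_WBI and 2.85, 2.45 and 3.96 FPKM in LL_WBI (1.49 ± 0.26, limma adjusted p = 0.242). Atxn1, a transcriptional repressor, was at 6.98, 8.01 and 7.11 against 1.92, 1.38 and 3.43 FPKM (1.77 ± 0.32, adjusted p = 0.259) and Cpxm1, of the carboxypeptidase family, at 7.65, 11.4 and 3.86 against 1.81, 1.08 and 1.67 FPKM (2.15 ± 0.40, adjusted p = 0.259). No library of the other group came between in any of them. The lysosomal membrane protein gene Lamp2 was lower without overlap, at 65.1, 76.9 and 67.7 against 97.4, 91.7 and 129 FPKM.

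**Figure D4:**
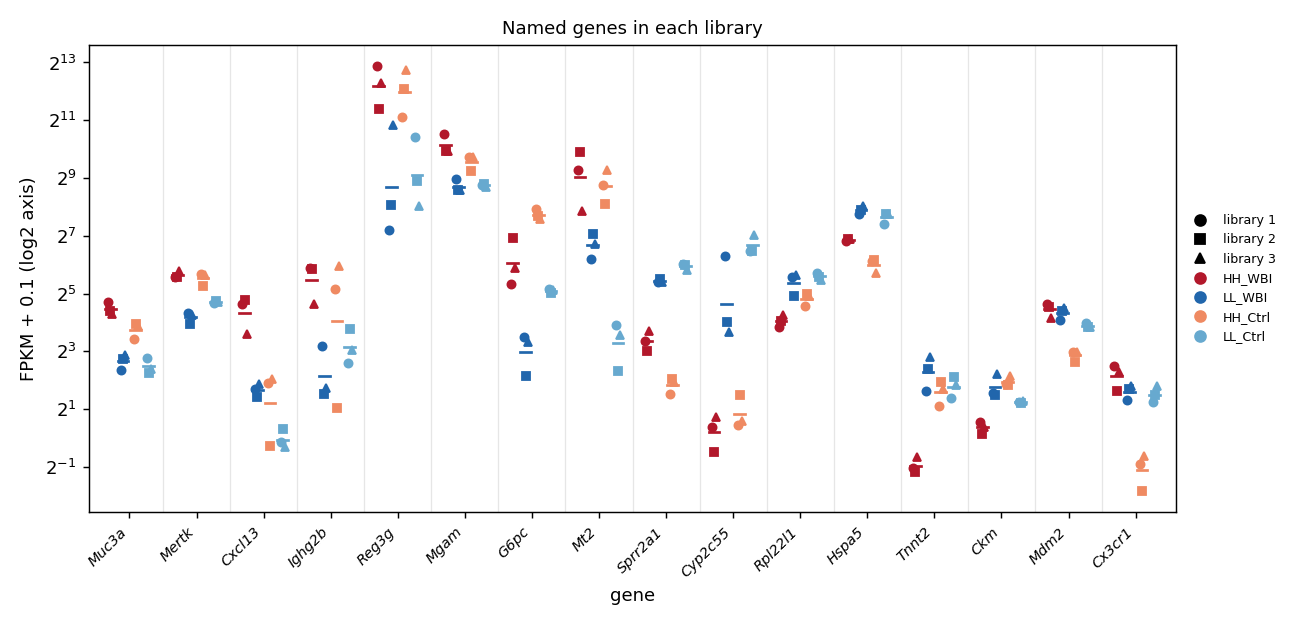
FPKM plus 0.1 (log2 axis) of 16 named genes in each of the 12 libraries, with colour for the group, symbol shape for the library number and a bar at the group mean of the log2 values. Muc3a, Mertk and Cxcl13 are higher in all 3 HH_WBI libraries than in LL_WBI and Sprr2a1, Cyp2c55 and Tnnt2 are lower. Tnnt2 lies at 0.344 to 0.532 FPKM in HH_WBI and above 2 FPKM in every other library.

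Genes that differed between the irradiated groups mostly had the same sign between the untreated groups, which share no library with them. Of the 724 genes higher in HH_WBI at an unadjusted p under 0.05, 574 (79.3%) were also higher in HH_Ctrl than in LL_Ctrl, and of the 734 lower ones 605 (82.4%) were also lower, against 8086 (62%) of all genes tested with the same sign. With an unadjusted p under 0.05 in the controls as well, the shares were 57.3% and 59.5%, against 35.9% of all genes. The opposite sign at that p was seen in 8.01% and 5.18%, against 16.8% of all genes. The median difference of the 724 genes was 0.775 between the irradiated groups and 0.417 between the controls, and that of the 734 genes -0.763 and -0.550. Between the controls 16.3% of the genes tested were higher and 36.4% lower in HH_Ctrl at an unadjusted p under 0.05, counts that also depend on the spread within each group. The difference between the irradiated and the control comparison had an adjusted p under 0.05 for 56 of the 724 genes and 104 of the 734, and for 927 of all genes. Where a gene had the same difference between the controls, what irradiation in each mode added cannot be told apart from what set the untreated groups apart.

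**Figure D5:**
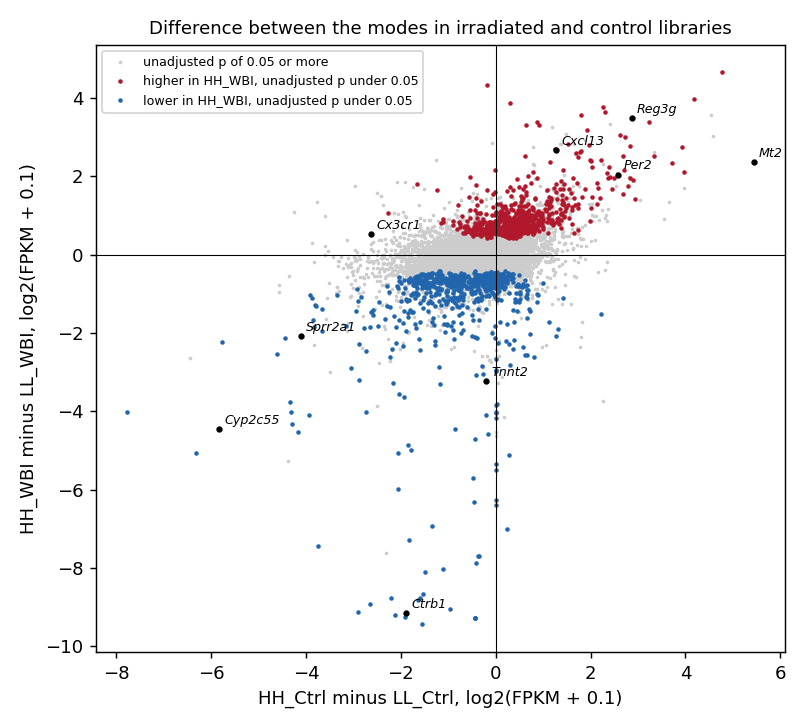
Difference in log2(FPKM + 0.1) between HH_WBI and LL_WBI (y axis) against that between HH_Ctrl and LL_Ctrl (x axis) for the 13049 genes tested. Red and blue mark the 724 genes higher and the 734 lower in HH_WBI at an unadjusted p under 0.05, and 9 genes are named. Most coloured points lie in the quadrants of equal sign, while Tnnt2 lies near 0 on the x axis (-0.20) and at -3.23 on the y axis.

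The number of genes called depended on LL_WBI 3. Without that library 168 genes were called higher (1.29%) and 162 lower (1.24%). Without LL_WBI 3 and HH_WBI 3, the irradiated libraries with the most ileal transcripts, 101 were called higher (0.774%) and 115 lower (0.881%). The fits shared 186 called genes. Several of the 330 genes called without LL_WBI 3 were those in which LL_WBI 3 resembled HH_WBI. Slc5a8, a transporter of short fatty acids, was at 25.6, 19.1 and 42.8 FPKM in HH_WBI and 0.117, 0.102 and 29.7 FPKM in LL_WBI (without LL_WBI 3, 7.05 with a limma adjusted p of 5.97e-05). Nos2, the inducible nitric oxide synthase, was at 10.9, 8.08 and 43.2 against 0.564, 0.260 and 29.3 FPKM, and Guca2a, which encodes the gut hormone guanylin, at 843, 647 and 1219 against 144, 111 and 1100 FPKM. In these genes the 2 LL_WBI libraries with pancreatic transcripts stood apart from the other 4. The same held in the other direction for Tmprss15, the duodenal enteropeptidase that activates trypsinogen, at 0.129, 0.206 and 0 FPKM in HH_WBI and 29.4, 75.5 and 0.0150 FPKM in LL_WBI, and for the pancreatic ribonuclease Rnase1, at 24.8, 14.9 and 15.1 against 1168, 3802 and 49.1 FPKM. Clca3a1, of the chloride channel accessory family, was at 26.7, 26.4 and 10.3 against 1.56, 1.42 and 12.2 FPKM. The other genes with the smallest p in this fit were Alpk1, Slc52a3, Map3k6, Mgat4c and Npl, which were higher in HH_WBI, and Pdia2, Cckar, Reg3d, Otop3, Ugt1a9, Erp27 and Aqp12, which were lower.

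Single markers of the gut segment split the libraries, while the summed proximal list did not split in this way. The list of 10 proximal genes summed to 561, 732 and 342 FPKM in HH_WBI and 704, 648 and 433 FPKM in LL_WBI, lowest in the third library of each group, and to 828, 784 and 713 FPKM in HH_Ctrl and 719.8, 800.3 and 805 FPKM in LL_Ctrl. Of its members tested, 0 were higher and 3 lower in HH_WBI at an unadjusted p under 0.05. Pdx1 and Tmprss15 were higher in LL_WBI 1 and 2 and in LL_Ctrl, at 8.68, 18.03 and 18.8 FPKM for Tmprss15 in LL_Ctrl, and near 0 in all HH libraries and in LL_WBI 3. In the clock genes Per2 and Per3 and in Sprr2a1, Muc3a, Cxcl13, Ighg2b and Tnnt2, LL_WBI 3 stood with LL_WBI 1 and 2. Genes named for a small p and no overlap between the groups have this order by choice. It therefore does not show that they are free of the split.

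Counts for the remaining gene lists were small at an unadjusted p under 0.05 and moved with scaling and libraries. Over all genes 5.55% were higher and 5.62% lower. Several of these short lists lay above those shares. Among them were iron handling, ATF4 and serine synthesis and tuft cells in the lower direction, and NRF2 antioxidant genes in the higher one. Higher and lower members numbered 2 and 0 of 25 for cholesterol synthesis (median 0.21, and -0.0039 with the pancreatic genes removed), 3 and 1 of 17 for NRF2 antioxidant genes and 1 and 1 of 13 for retinoid metabolism. They numbered 2 and 4 of 19 for ATF4 and serine synthesis and 0 and 1 of 22 for fatty acid oxidation, where 7 each were lower with the pancreatic genes removed. For iron handling they were 0 and 2 of 8, at a median of -0.91 that was -0.24 against LL_WBI 3 alone and -1.02 between the controls. In that list 1 member was higher and 3 lower without overlap (8.42% and 8.64% of all genes). For the lysosome the counts were 3 and 2 of 32 (median 0.08, and -0.13 with the pancreatic genes removed) and for the glucocorticoid response 1 and 0 of 12. For arginine and polyamine metabolism they were 1 and 3 of 19 (median -0.08, and 0.06 with GC and length trends removed), for pyrimidine metabolism 0 and 1 of 18, for the citric acid cycle 0 and 1 of 20 and for N-glycan synthesis 0 and 1 of 34.

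For the epithelial lineages the counts were 0 and 2 of 18 crypt stem cell genes, 1 and 0 of 11 fetal-like genes, 1 and 0 of 12 goblet cell genes and 1 and 0 of 16 tight junction genes. They were 0 and 2 of 9 tuft cell genes (median 0.03, and -0.08 with the pancreatic genes removed) and 1 and 0 of 8 EGF receptor ligands (median -0.07, and 0.13 with GC and length trends removed).

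Among signals, 3 and 2 of 40 chemokine genes, 2 and 2 of 40 interleukin genes, 2 and 0 of 28 genes of the TNF superfamily and 1 and 0 of 20 complement genes were higher and lower. The medians of these lists were between 0.07 and 0.14. With the pancreatic genes removed they were between -0.12 and -0.05, where the median of all genes was -0.21. The chemokine counts were 15 and 2 without LL_WBI 3 and HH_WBI 3, and 2 and 17 against LL_WBI 3 alone, and those of complement 10 and 0, and 0 and 2. MHC class I had 1 and 0 of 22 (median 0.18, and -0.04 with the pancreatic genes removed), Wnt and BMP signals 1 and 1 of 20 (0.11 and -0.08) and matrix proteoglycans and glycoproteins 1 and 2 of 34 (0.05 and -0.16, and -0.02 with GC and length trends removed). The insulin-like growth factor axis had 0 and 1 of 11, and 0 of 18 matrix protease, inhibitor and crosslinker genes and 0 of 7 liver genes passed in either direction.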

How the data were processed

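Intestinal RNA-seq of 12 mouse libraries was deposited as a table of FPKM per gene, which the authors computed with StringTie 1.3.1. Bowtie 0.12.2 and several genome builds stand in the submitters' processing notes, with no role given. The labels describe rRNA removal and strand marking, and the methods oligo(dT) selection. Read counts are not in the values used here, so the depth of each library is known only relative to LL_Ctrl 1. Groups were taken from the sample titles.

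HH_WBI and LL_WBI were compared with limma 3.58.1 in R 4.3.3 (empirical Bayes with a trend on the mean) on log2(FPKM + 0.1), for genes whose mean over the 6 libraries was 0.5 FPKM or more, with Benjamini-Hochberg adjustment over all genes tested. A gene was called at an adjusted p under 0.05 with an absolute log2 difference above 1. The control comparison used the 6 control libraries in the same way, and the difference of differences a fit of all 12 libraries with a common spread for all groups. Both were added after the data were seen, as were counts of list members called without LL_WBI 3 or without both ileal libraries. GC content and transcript length came from GENCODE M21.

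The genes named were the 15 higher and 15 lower with the smallest p among protein-coding genes averaging 2 FPKM or more, with no overlap and an absolute log2 difference above 1, outside the pancreatic lists and without Gm or Rik names. To these were added up to 5 genes of each list and any that mark it, 9 damage and cytokine genes, the 10 higher and 10 lower with the smallest p without LL_WBI 3, and the main pancreatic and ileal genes. Some genes that met the rule or belong to the lists are not reported here by name. Gcat met the rule and is not given, since its symbol stands in more than 1 row of the table. The comparison, its members and the gene lists were chosen with earlier results of these data known. The alternatives were pseudocount, filter, scaling, GC and length trends, no trend, a replicate block, a term for the third library of each group, a fit of all 12 libraries and libraries left out. The fits were tested on simulated data. The authors' own comparisons were not used.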

Additional observations from a re-analysis of the deposited data

Results flagged for a closer look

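For 16 genes named in the report, the HH minus LL difference after irradiation and the same difference in the untreated mice were set apart by a test of the difference between them, in a limma fit of all 12 libraries with Benjamini-Hochberg adjustment. The values are the irradiated difference minus the control difference on the log2(FPKM + 0.1) scale. All 16 had an adjusted p under 0.05, a level that 927 of the 13049 genes tested reached. This fit takes a common spread for all groups, so its p can be too small where some group varied more than the others. With such a fit 115 genes were called between HH_WBI and LL_WBI, and 0 in the comparison as reported. Many of them were named for their values in these same libraries, so they do not stand for all genes.

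Negative values were seen for the troponin Tnnt2 (-3.03, adjusted p = 0.0107) and the creatine kinase Ckm (-2.1, 0.0103). Tnnt2 was at 0.386, 0.344 and 0.532 FPKM in HH_WBI and 2.04, 3.77 and 3.11 FPKM in HH_Ctrl, and Ckm at 1.39, 0.997 and 1.22 and 3.57, 3.44 and 4.33 FPKM, so the HH_WBI libraries lay below their own controls for both. The mesothelial genes Msln (-3.33, adjusted p = 0.0196) and Upk3b (-3.41, 0.0412) and the neuronal genes Gal (-3.74, 0.0126) and Tubb3 (-1.65, 0.0255) were negative as well. Msln was at 1.18, 0.485 and 0.405 FPKM in HH_WBI and 3.58, 3.95 and 4.76 FPKM in HH_Ctrl, against 2.17, 1.85 and 6.17 FPKM in LL_WBI and 2.50, 1.71 and 1.01 FPKM in LL_Ctrl.

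The metallothionein Mt2 (-3.08, adjusted p = 0.033) and the asparagine synthetase Asns (-1.33, 0.0315) had a lower HH minus LL difference after irradiation than without it. Mt2 was at 15.1, 4.92 and 11.7 FPKM in LL_Ctrl and 73.3, 134 and 106 FPKM in LL_WBI, without overlap.

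Positive values were seen for the small proline-rich genes Sprr2a1 (2.03, adjusted p = 0.0103), Sprr2a2 (1.98, 0.016) and Sprr2a3 (2.18, 0.0349), which were lower in the HH mode by less after irradiation than without it. The macrophage receptor Cx3cr1 (3.16, adjusted p = 0.0103), the gelatinase Mmp9 (2.8, 0.0206), the chemokine Cxcl12 (2.06, 0.0185), the p53 regulator Mdm2 (1.16, 0.0195) and the lysosomal gene Lamp2 (1.1, 0.0211) were positive too. For Cx3cr1, Mmp9, Cxcl12 and Mdm2 the HH_Ctrl libraries were low and the other 3 groups lay closer together, with Cxcl12 at 4.14, 2.24 and 4.88 FPKM in HH_Ctrl and 10.2, 9.68 and 9.85 FPKM in LL_Ctrl. The composition of LL_WBI 1 and 2 enters each of these values, and its part was not tested.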

How the results depend on the processing

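The count of called genes, 0 in the comparison as reported, was 9 with the replicate number as a block (replicate block). It was 49 with a term that marked the third library of each group, the irradiated libraries with the most ileal transcripts. No level of an ileal gene entered that fit. The count was 115 with all 12 libraries in 1 fit and 216 without LL_WBI 3 and HH_WBI 3. With 1 library left out it lay between 0 and 330, 330 without LL_WBI 3 and 1 without HH_WBI 3. Of the 330, 186 were among the 216, all 49 were among the 330 and all 9 among the 49. Every other alternative run gave 0. Same-numbered libraries deviated from their group means with correlations of -0.11, -0.03 and 0.28 across genes for numbers 1, 2 and 3. The composition of LL_WBI 1 and 2 enters these values, so they cannot tell whether the replicate numbers pair the libraries.

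The 724 genes higher at an unadjusted p under 0.05 became 466 with the pancreatic genes removed, 1439 with all 12 libraries, 1265 without LL_WBI 3 and HH_WBI 3, 349 without LL_WBI 1 and 2, and 342 to 1424 with 1 library left out. The 734 lower became 2215 with the pancreatic genes removed, 1396 with all 12 libraries, 1172 without LL_WBI 1 and 2, and 356 to 1262 with 1 library left out. Under the other alternatives both counts stayed within 1.5 times. The cause of these shifts was not tested beyond the removal itself, which takes libraries or pancreatic FPKM away.

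Over the 133 genes followed singly, 30 values changed sign, 187 passed the threshold that they had missed and 2162 stayed on their side of it. Without LL_WBI 1 and 2 the sign turned for Amy2a5 (2.01), Ins2 (0.32), Fabp6 (-2.36), Fgf15 (-3.06), Slc10a2 (-0.76), Pdx1 (0.50), Defa22 (-1.70), Tnf (-0.21), Mdm2 (-0.036), Bax (-0.26), Slc5a8 (-0.11), Nos2 (-0.90), Tmprss15 (0.73), Guca2a (-0.33) and Alpi (0.67). With the pancreatic genes removed it turned for Per1 (-0.079), H2ax (-0.047), Mdm2 (-0.078) and Bax (-0.20), and with GC and length trends removed for Per1 (-0.065). Without LL_WBI 3 and HH_WBI 3, Clock was at 0.34 and Il6 at 0.15. With 1 library left out, Clock was at -0.20 to 0.18, Il6 at -0.90 to 0.13, H2ax at -0.17 to 0.62, Trp53 at -0.28 to 0.074 and Bax at -0.051 to 0.16, and all other genes kept their sign. The cause was not tested.

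The main limits are 3 libraries a group, 2 of which in LL_WBI carried pancreatic transcripts, an unknown gut segment, and controls that differed between the modes.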
